A study of Mus musculus with 20 samples.

Results

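Elastic fibres and the microfibrils around them were described here through 10 genes: *Eln*, *Fbn1*, *Fbn2*, *Fbln1*, *Fbln2*, *Fbln5*, *Efemp1*, *Efemp2*, *Mfap2*, and *Mfap4*. The members were chosen by name, as the elastin, fibrillin, fibulin, and microfibril-associated genes. They are 10 of the 51826 genes in the count table, and all 10 were among the 20407 genes that passed the filter of at least 5 counts in at least 5 libraries. The data were 20 poly-A RNA libraries of primary renal myofibroblasts from C57BL/6J mice, with 5 libraries in each of 4 groups: WT untreated, WT with TGFb1, WWP2-/- untreated, and WWP2-/- with TGFb1. WWP2 is an E3 ubiquitin ligase of the NEDD4 family, and the WWP2-/- line is a constitutive knockout that lacks its full-length and N isoforms, so that the kidneys from which the cells grew also lacked them. The cells were an outgrowth from minced kidney taken at the second passage. The labels give neither a dose nor a duration for TGFb1, but the figure legends of the study state both for its RNA sequencing of treated cells. The labels number the libraries of a group but do not say whether each came from its own mouse. Nor do they say whether treated and untreated libraries share a mouse. The *P* values set a difference against the spread between these libraries, which the fit took as independent.

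An elastic fibre has a core of cross-linked elastin and a mantle of microfibrils. Fibrillin microfibrils are the scaffold on which tropoelastin is laid down, and fibulins carry tropoelastin and the lysyl oxidases to that scaffold. Microfibrils also hold latent TGFb in the matrix through its binding proteins. In the kidney, these fibres belong mainly to artery walls, and microfibrils without elastin lie in the glomerular mesangium and the interstitium. TGFb1 is a well-known inducer of matrix genes in fibroblasts, and the study asked whether matrix gene activity under TGFb1 depends on WWP2.

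The genome stretches before the start sites of 4 members are shown, picked by the genotype comparison below. *Fbln5*, *Mfap2*, and *Efemp1* were the members whose WWP2-/- libraries all lay below the WT libraries with TGFb1. *Efemp2*, the close relative of *Efemp1*, had the smallest absolute log2 fold change there (−0.67). These are not the extremes by fold change, since *Fbn2* had a larger one (−4.19) with overlapping libraries. RefSeq (GRCm38.p6) promoter entries matched 7 of the 10 members. The other members are *Eln*, *Fbn2*, and *Mfap4*. Each run gives the 250 bases before the annotated start, 5′ to 3′ on the strand of the gene, with capitals marking the SMAD box (CAGAC, or its complement GTCTG). The places are chr12:101819120-101819369 on the minus strand for *Fbln5*, chr4:141010174-141010423 on the plus strand for *Mfap2*, chr11:28852955-28853204 on the plus strand for *Efemp1*, and chr19:5473696-5473945 on the plus strand for *Efemp2*.
Fbln5: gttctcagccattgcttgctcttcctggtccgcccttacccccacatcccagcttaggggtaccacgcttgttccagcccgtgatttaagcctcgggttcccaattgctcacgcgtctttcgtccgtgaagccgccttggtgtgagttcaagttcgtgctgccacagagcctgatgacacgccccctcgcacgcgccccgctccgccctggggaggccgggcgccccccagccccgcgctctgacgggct
Mfap2: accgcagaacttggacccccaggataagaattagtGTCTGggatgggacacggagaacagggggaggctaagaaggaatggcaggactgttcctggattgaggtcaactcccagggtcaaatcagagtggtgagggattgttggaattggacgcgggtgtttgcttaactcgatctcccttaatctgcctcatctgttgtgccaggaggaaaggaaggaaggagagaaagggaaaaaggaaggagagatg
Efemp1: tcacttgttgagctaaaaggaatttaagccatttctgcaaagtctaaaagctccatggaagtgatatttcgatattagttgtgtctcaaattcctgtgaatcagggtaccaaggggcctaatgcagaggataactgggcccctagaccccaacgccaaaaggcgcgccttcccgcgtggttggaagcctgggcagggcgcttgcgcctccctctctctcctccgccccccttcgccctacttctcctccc
Efemp2: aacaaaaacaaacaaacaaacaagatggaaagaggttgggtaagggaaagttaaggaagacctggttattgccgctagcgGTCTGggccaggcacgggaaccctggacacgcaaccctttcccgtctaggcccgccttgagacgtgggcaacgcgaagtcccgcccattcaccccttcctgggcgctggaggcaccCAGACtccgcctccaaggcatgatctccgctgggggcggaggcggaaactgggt
The SMAD box stood in the windows of 3 of the 7 members with an entry, *Fbln1*, *Efemp2*, and *Mfap2*, and in 42.2% of all 32851 windows of the same length. It was found 2 times before *Efemp2*, 1 time before *Mfap2*, and 0 times before *Fbln5* and *Efemp1*. The AP-1 letters TGANTCA stood only before *Efemp1* among the 7, against 6.75% of all windows, and the TEAD letters GGAATG only before *Mfap2*, against 12.6%. The GC box GGGCGG stood before *Fbn1*, *Fbln2*, *Fbln5*, *Efemp1*, and *Efemp2*, and in 32.7% of all windows. The letters TATAAA stood before none of the 7 and in 12.4% of all windows. The letters CAGCTG, 1 form of the E-box, stood before none and in 13%, and other forms of the E-box were not searched. All motifs were searched on both strands, and such matches are descriptions of letters only.

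Levels are given as CPM, the counts of a gene scaled to a common library total. *Wwp2*, the targeted gene, was at 53.5 ± 2.89 CPM (SD, n = 5) in WT and 19.0 ± 1.72 CPM in WWP2-/- libraries with TGFb1, and at 53.1 ± 4.14 against 20.5 ± 1.62 CPM without it, and no library crossed over (exact two-sided permutation test, *P* = 0.00794 each, the smallest that 5 libraries against 5 allow). Library totals were between 47520759 and 73063697 counts, so that 3 counts, the limit that a count of 0 allows, were at most 0.0613 CPM; such limits cover counting error only. *Xist*, the RNA of the silenced X chromosome in female cells, was above 1 CPM in 4 of 5 WT libraries in each treatment, but in 2 of 5 untreated and 1 of 5 treated WWP2-/- libraries. The WT libraries without it were untreated replicate 4 and TGFb1 replicate 3. *Acta2*, the smooth muscle actin of myofibroblasts, was at 38.9 CPM in WWP2-/- untreated replicate 3 and 50.4 CPM in WWP2-/- TGFb1 replicate 1, against 1016 to 3430 CPM in the other libraries, and these were also WWP2-/- libraries with *Xist*. Transcripts of 4 Y-linked genes were found together with *Xist* in 5 libraries, 4 of them WT. Since *Xist* was spread so unevenly over the groups, genotype and cell sex cannot be fully told apart.

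The members spanned a wide range of levels. On the scale of CPM per kb of exon, *Fbln2* stood highest in all 20 libraries, with a median level of 403 (lowest 80.5, highest 1228). *Efemp2*, *Efemp1*, and *Fbn1* followed with median levels of 76.0, 68.0, and 65.0 CPM per kb. The order among these was not firm, since *Efemp2* was above *Efemp1* in 11 of 20 libraries and *Efemp1* above *Fbn1* in 15 of 20. *Fbln5* (median 23.2 CPM per kb) and *Mfap2* (17.8) came next, with *Fbln5* above *Mfap2* in 14 libraries. *Mfap2* was above *Fbln1* (2.80 CPM per kb) in all 20. At the lower end were *Mfap4* (0.697), *Eln* (0.380), and *Fbn2* (0.289 CPM per kb), and *Mfap4* was above *Eln* in 10 of 20 and *Eln* above *Fbn2* in 11 of 20.

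**Figure D1:**
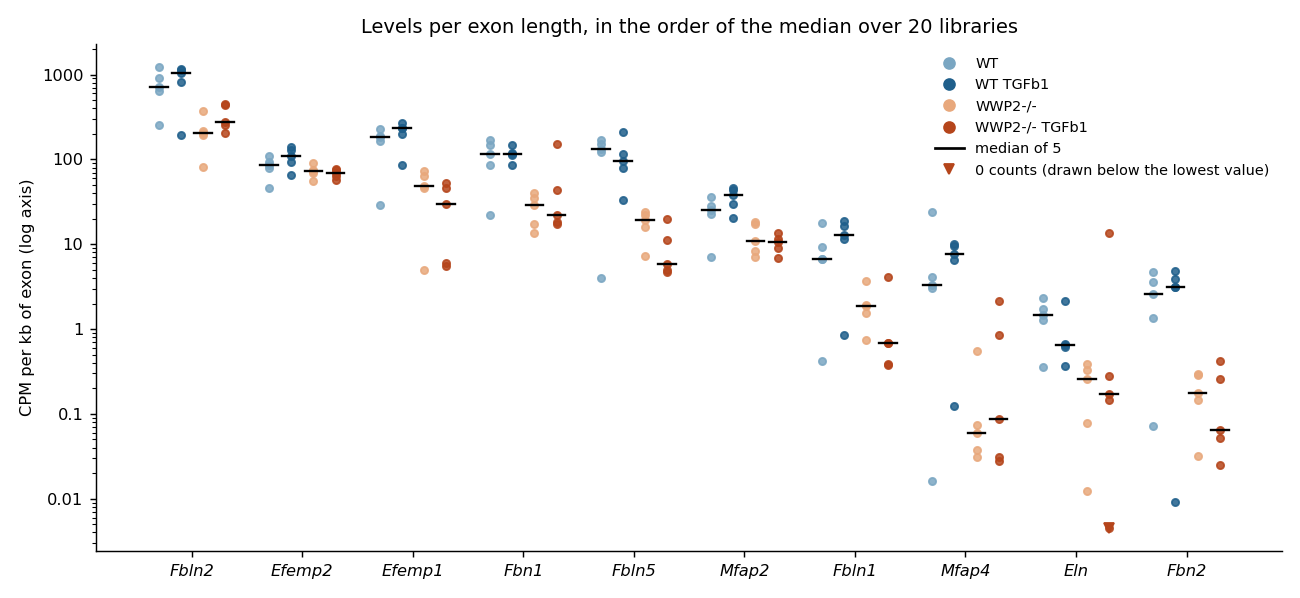
Level of each member in CPM per kb of exon (log axis), with a point for each of the 20 libraries in its group colour and a bar at the median of 5. Fbln2 had the highest median, 403, and Fbn2 the lowest, 0.289, and the WT libraries of most members lay above the WWP2-/- libraries except for 1 low WT library in each treatment.

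The comparison of WWP2-/- with WT cells under TGFb1 is the main one of the study. Here 5 of the 10 members were lower in WWP2-/- libraries by edgeR's quasi-likelihood test at an adjusted *P* below 0.05 (Benjamini–Hochberg over 20407 genes): *Fbln5*, *Fbn2*, *Fbln1*, *Efemp1*, and *Mfap2*. None was higher. The number of members called was 0 with *Xist* as a covariate, 3 in a fit of only the groups compared, and 2 on leaving out WT TGFb1 replicate 2, 4, or 5 or WWP2-/- TGFb1 replicate 2, but 8 by DESeq2's Wald test. Over all genes, 6.07% passed this test and 3.96% passed it in the lower direction. Fold changes were negative on the log2 scale for 9 of 10 members, the exception being *Eln*, and its median over the members was −2.33, against 0.05 over all genes tested. The genotypes were fully apart, all WWP2-/- below all WT libraries, for 3 members, *Fbln5*, *Efemp1*, and *Mfap2*, as for 3.08% of all genes. Without TGFb1, 0 of 10 members passed, where 0.725% of all genes did and 0.622% in the lower direction. All 10 log2 fold changes were negative, with a median of −2.04 against 0.08 over all genes, and 8 members had an unadjusted *P* below 0.05, as did 14.9% of all genes. No member was free of overlap between untreated groups, where 1.29% of all genes were. DESeq2's Wald test, the one the authors used, called 5 members and 747 genes untreated and 8 members and 2672 genes with TGFb1. The groups of cells are bulk samples, in which fewer cells of a type and less RNA per cell cannot be told apart.

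**Figure D2:**
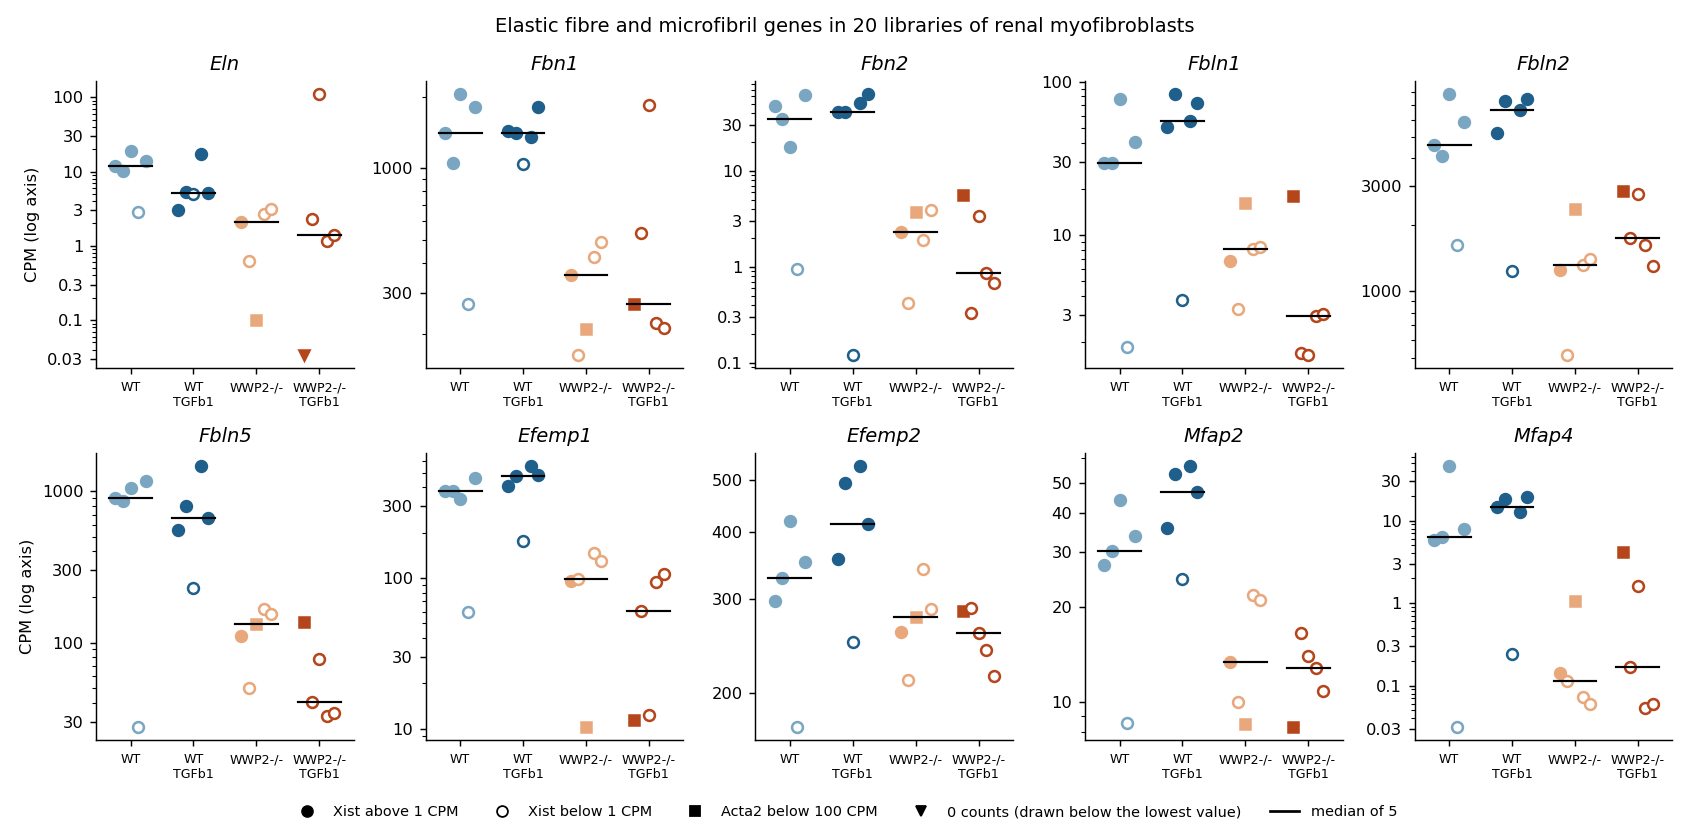
CPM of each member (log axis, scaled per gene) in the 5 libraries of each group; bars are medians, filled symbols are libraries with Xist above 1 CPM, open symbols those below, squares are the libraries with Acta2 below 100 CPM, and the triangle is a count of 0. The open symbol in each WT group is the lowest WT library in 19 of the 20 combinations of member and treatment.

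Among the fibulins, *Fbln5* had the clearest difference. Its protein binds tropoelastin, lysyl oxidase-like enzymes, and integrins, and is required to assemble elastic fibres. The gene (ENSMUSG00000021186) lies at chr12:101746565-101819055 on the minus strand of GRCm38. With TGFb1, *Fbln5* was at 554, 799, 229, 1463, and 660.2 CPM in WT replicates 1 to 5 and at 136, 40.8, 78.1, 32.6, and 34 CPM in WWP2-/- replicates 1 to 5. Even the lowest WT library, replicate 3, was above the highest WWP2-/- library. WWP2-/- against WT cells gave a log2 fold change of −3.53 ± 0.72 (SE), with an adjusted *P* of 0.0121 in edgeR's test. It passed in each of the 10 fits that left out 1 library, but not with *Xist* as a covariate (adjusted *P* = 0.0565). Untreated, *Fbln5* was at 905, 857, 1047, 27.5, and 1174 CPM in WT and at 110.2, 50.0, 133, 167, and 154 CPM in WWP2-/- libraries. Here WT replicate 4 lay below all 5 WWP2-/- libraries while the other 4 WT libraries stood above them, and the difference of −2.71 ± 0.69 on the log2 scale had an adjusted *P* of 0.0825.

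*Fbln1* and *Fbln2* encode fibulins of basement membranes and vessel walls that bind fibronectin and fibrillin, and they lay far apart in level. *Fbln1* (ENSMUSG00000006369, chr15:85205949-85286535, plus strand) was at 50.8, 82.9, 3.75, 55.8, and 72.0 CPM in WT libraries with TGFb1 and at 17.8, 1.70, 1.63, 2.96, and 3.02 CPM in WWP2-/- libraries. WT replicate 3 was within the WWP2-/- range, and WWP2-/- replicate 1, the library with little *Acta2*, was the only one of its group above that WT value. This gave a log2 fold change of −3.29 ± 0.89 (adjusted *P* = 0.0354), and it passed in only 2 of the 10 fits that left out 1 library. Untreated, *Fbln1* was at 29.6, 29.6, 77.5, 1.85, and 40.4 CPM in WT and at 6.72, 3.26, 16.1, 8.06, and 8.30 CPM in WWP2-/- libraries (−2.08 ± 0.85, adjusted *P* = 0.267). WT replicate 4 was again below all 5 WWP2-/- libraries.

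*Fbln2* (ENSMUSG00000064080, chr6:91212455-91272540, plus strand), the most abundant member, was at 5212, 7296, 1240, 6618, and 7408 CPM in WT libraries with TGFb1. Its level in the WWP2-/- libraries was 2846, 1736, 2769, 1622, and 1306 CPM. Apart from WT replicate 3, which was below all 5 WWP2-/- libraries, the groups were apart. The log2 fold change of −1.43 ± 0.47 had an adjusted *P* of 0.0716. Untreated, the gene was at 4584, 4120, 7825, 1617, and 5850 CPM in WT and at 1246, 513, 2368, 1313, and 1396 CPM in WWP2-/- libraries (−1.81 ± 0.47, adjusted *P* = 0.0882), so that 4 of 5 WWP2-/- libraries lay below every WT library.

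*Efemp1* and *Efemp2* encode the close relatives fibulin-3 and fibulin-4, and only the former passed the test of genotypes with TGFb1. Fibulin-4 is needed to bring lysyl oxidase to tropoelastin in large arteries, and fibulin-3 belongs to the elastic tissue of fascia and the membranes of the eye. *Efemp1* (ENSMUSG00000020467, chr11:28853204-28926743, plus strand) was at 406, 474, 176, 553, and 482 CPM in WT and at 11.4, 60.9, 12.4, 93.8, and 106 CPM in WWP2-/- libraries with TGFb1. No library overlapped between the genotypes, and the log2 fold change was −2.88 ± 0.71 (adjusted *P* = 0.025), a call kept in 6 of 10 fits with 1 library left out. Untreated, it was at 380, 379, 336, 59.8, and 465 CPM in WT and at 95.0, 99.0, 10.2, 148, and 129 CPM in WWP2-/- libraries (−1.75 ± 0.68, adjusted *P* = 0.247). In each WWP2-/- group, the library with little *Acta2* had the lowest *Efemp1*.

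*Efemp2* (ENSMUSG00000024909, chr19:5473954-5482517, plus strand) was the steadiest member. It was at 356, 494, 249, 531, and 414 CPM in WT and at 284, 288, 259, 241, and 215 CPM in WWP2-/- libraries with TGFb1, and the lowest WT library overlapped the WWP2-/- range (−0.67 ± 0.21, adjusted *P* = 0.0678). Untreated, it was at 297, 328, 420, 173, and 351 CPM in WT and at 260.3, 212, 278, 341, and 287 CPM in WWP2-/- libraries (−0.19 ± 0.21, adjusted *P* = 0.705). Since the 2 genes were counted in the same libraries, their levels per kb can be set against each other. The ratio of *Efemp2* to *Efemp1* had a median of 0.516 in WT and 2.55 in WWP2-/- libraries with TGFb1, with ranges of 0.461 to 0.760 and 1.09 to 13.5. Untreated, the medians were 0.465 and 1.24, and WT replicate 4 stood at 1.55. The strand setting of the counting is not given in the sources used here, and *Efemp2* overlaps *Mus81* on the other strand, so reads of the 2 genes may not be told apart.

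The fibrillins form the backbone of the microfibril, *Fbn1* in adult tissue and *Fbn2* mainly in development. *Fbn1* (ENSMUSG00000027204, chr2:125300594-125507993, minus strand) was at 1438, 1408, 1044, 1355, and 1799 CPM in WT libraries with TGFb1 and at 269, 532, 1845, 222, and 212 CPM in WWP2-/- libraries. In 4 of 5 WWP2-/- libraries it was well below every WT library, but replicate 3 was above them all. The log2 fold change was −1.19 ± 0.57 (adjusted *P* = 0.204), and without that replicate it was −2.21 (adjusted *P* = 0.0218), where the adjusted *P* over all 19 alternative fits ran from 0.0218 to 0.373. Untreated, *Fbn1* was at 1410.0, 1047, 2048, 268, and 1805 CPM in WT and at 354, 163, 211, 423, and 488 CPM in WWP2-/- libraries (−2.0 ± 0.58, adjusted *P* = 0.122). Only WT replicate 4 was within the WWP2-/- range.

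*Fbn2* (ENSMUSG00000024598, chr18:58008623-58210487, minus strand) was far scarcer. It was at 41.8, 41.1, 0.12, 51.6, and 63.5 CPM in WT libraries with TGFb1 and at 5.61, 0.333, 3.41, 0.863, and 0.681 CPM in WWP2-/- libraries. WT replicate 3, with 6 counts, was the lowest of all 10 libraries, and the other WT libraries were above every WWP2-/- library. As a log2 fold change this was −4.19 ± 1.15 (adjusted *P* = 0.0389), called in 2 of 10 fits with 1 library left out. Untreated, it was at 47.8, 34.6, 18.0, 0.947, and 61.5 CPM in WT and at 2.31, 0.416, 3.76, 1.91, and 3.88 CPM in WWP2-/- libraries (−3.73 ± 1.13, adjusted *P* = 0.135). *Fbn1* overlaps *Gm9913* and *Fbn2* overlaps *Gm26507* on the other strand.

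Among the microfibril-associated genes, *Mfap4* was scarce, while *Mfap2* stood between *Fbln5* and *Fbln1* in its median level per kb. *Mfap2* encodes MAGP-1, a small protein that decorates fibrillin microfibrils and binds TGFb. The gene (ENSMUSG00000060572, chr4:141010418-141015984, plus strand) was at 35.8, 53.1, 24.6, 56.4, and 46.6 CPM in WT and at 8.29, 16.5, 14, 12.8, and 10.8 CPM in WWP2-/- libraries with TGFb1. All WT libraries lay above all WWP2-/- libraries. The difference of −1.79 ± 0.36 on the log2 scale was the smallest among the 5 members called, and it passed (adjusted *P* = 0.0121) in the full fit and in all 10 fits that left out 1 library, but not with *Xist* as a covariate (adjusted *P* = 0.0567). Untreated, *Mfap2* was at 27.3, 30.3, 44.0, 8.58, and 33.9 CPM in WT and at 13.4, 9.96, 8.48, 22, and 21.1 CPM in WWP2-/- libraries (−0.94 ± 0.36, adjusted *P* = 0.236).

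*Mfap4* (ENSMUSG00000042436, chr11:61485431-61488900, plus strand) encodes a fibrinogen-like glycoprotein that binds elastin, fibrillin, and collagen. With TGFb1, it was at 14.6, 18.4, 0.24, 12.6, and 19.3 CPM in WT and at 4.13, 0.166, 1.63, 0.0539, and 0.0592 CPM in WWP2-/- libraries (−3.43 ± 1.4, adjusted *P* = 0.140). Untreated, it was at 5.87, 6.39, 45.9, 0.0311, and 7.98 CPM in WT and at 0.143, 0.115, 1.05, 0.0722, and 0.0593 CPM in WWP2-/- libraries (−5.56 ± 1.57, adjusted *P* = 0.107). In each treatment, 4 WT libraries were above every WWP2-/- library and 1 was among or below them. The lowest libraries held only 2 to 4 counts, so differences between them are within counting error. *Mfap4* overlaps *Mapk7* on the other strand.

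*Eln*, the gene of tropoelastin (ENSMUSG00000029675, chr5:134702593-134747323, minus strand, overlapping *Gm30003* on the other strand), departed from the rest in 1 library. With TGFb1, it was at 3.0, 5.37, 4.95, 17.3, and 5.21 CPM in WT and at 0, 2.30, 110.4, 1.17, and 1.39 CPM in WWP2-/- libraries. WWP2-/- replicate 3 was thus 5.79-fold above the next highest of all 20 libraries, and replicate 1 had no count, which allows up to 0.0505 CPM. The other 4 WWP2-/- libraries were below every WT library. The log2 fold change was 1.68 ± 1.29 (adjusted *P* = 0.447) with all libraries and −2.58 without replicate 3, so its direction rests on that library. Untreated, *Eln* was at 11.8, 10.3, 19.1, 2.86, and 13.8 CPM in WT and at 2.09, 0.631, 0.101, 2.67, and 3.14 CPM in WWP2-/- libraries (−2.74 ± 1.34, adjusted *P* = 0.347). There, 4 of 5 WWP2-/- libraries were below every WT library.

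WT untreated replicate 4 had the lowest level of its group for all 10 members, and WT TGFb1 replicate 3 for 9 of 10. These are the WT libraries without *Xist*, and their other transcripts stood apart too. The summed level of the 10 macrophage markers was 4030.2 CPM in WT untreated replicate 4 against 161 to 1166 in the other 4, and 460.4 CPM in WT TGFb1 replicate 3 against 82.4 to 332. In WWP2-/- libraries this sum ran from 91.3 to 1814 CPM untreated and from 88.3 to 3599 with TGFb1, and no macrophage marker was below 1 CPM throughout. The 10 fibroblast markers summed to 4823 CPM in WT untreated replicate 4 against 15430 to 22078 in the other 4, and to 10768 CPM in WT TGFb1 replicate 3 against 25064 to 36048. In WWP2-/- libraries the fibroblast sum was between 4597 and 10394 CPM untreated and between 5597 and 13463 with TGFb1. It was thus lower than in most WT libraries, and 3 of the 10 fibroblast markers, *Col1a1*, *Col1a2*, and *Postn*, were lower in WWP2-/- libraries with TGFb1 at an adjusted *P* below 0.05. All 10 macrophage markers had a positive log2 fold change in that comparison, from 1.25 to 3.0, and an unadjusted *P* below 0.05, but 0 passed the test (adjusted *P* of 0.0661 to 0.165), and the median of their sum was 154 CPM in WT and 981 CPM in WWP2-/- libraries. Untreated, 9 of the 10 were negative, and their log2 fold changes ran from −1.13 to 0.40 (adjusted *P* of 0.627 to 0.770). Endothelial markers, of which 2 of 10 passed as lower (*Kdr* and *Tek*), summed to 30.3 to 202 CPM in WT and 12.3 to 193 CPM in WWP2-/- libraries with TGFb1. The other 8 had a positive log2 fold change there, up to 2.21, and did not pass. Tubular markers summed to 40.4 to 175 and 10.3 to 530 CPM, with *Slc34a1* and *Umod* below 1 CPM in every library. All 8 tubular markers tested had a positive log2 fold change with TGFb1, from 0.296 to 2.87, and 0 passed. Contractile markers summed to 3507 to 4859 and 565 to 8536 CPM, and pericyte and mesangial markers, of which *Itga8* passed as lower and *Ren1*, *Abcc9*, and *Kcnj8* were below 1 CPM in every library, to 742 to 875 and 301 to 1107 CPM. Of the 8 pericyte and mesangial markers tested, 4 had a positive and 4 a negative log2 fold change with TGFb1. The part of cell makeup in the difference of the members was not tested.

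Within libraries of the same *Xist* class, the difference of the members depended on the class. Among libraries with *Xist*, all 10 members had a lower mean log2 CPM in WWP2-/- libraries, with a median difference of −2.49 with TGFb1 (1 library against 4) and −2.76 untreated (2 against 4). The lone treated library and 1 of the 2 untreated ones are those with little *Acta2*. The other, WWP2-/- untreated replicate 1, had *Fbln5* at 110.2 CPM against 857 to 1174 in WT libraries with *Xist*, *Fbn1* at 354 against 1047 to 2048, and *Efemp1* at 95.0 against 336 to 465. That library is not closely matched to those WT libraries. Its *Xist* was at 33.7 CPM, against 107.9 to 220.4 CPM in untreated WT libraries with *Xist*. Its Y-linked transcripts summed to 208.7 CPM, against 0.0818 to 88.4 CPM. Among libraries without *Xist*, 7 members were lower and 3 higher with TGFb1 (4 against 1, median −0.50), and 2 were lower and 8 higher untreated (3 against 1, median 0.74). The differences within a class were not tested. With *Xist* as a covariate, 0 of 10 members passed in either treatment, where 544 of the 20407 genes passed with TGFb1 and 84 untreated. The log2 fold change was then −2.55 ± 0.71 for *Fbln5* (adjusted *P* = 0.0565, over all alternatives 7.4e-06 to 0.0565), −1.69 ± 0.47 for *Mfap2* (0.0567, over all 0.000136 to 0.0567), and −3.27 ± 1.05 for *Efemp1* (0.0825, over all 0.000475 to 0.0825). For *Fbln1* it was −1.65 ± 0.65 and for *Fbn2* −2.18 ± 1.46. Leaving out both WT libraries without *Xist*, 8 members passed with TGFb1 and 7 untreated, as did 3322 and 1136 of 20172 genes. Leaving out both WWP2-/- libraries with little *Acta2*, 7 and 2 members passed, as did 3480 and 271 of 20182 genes.

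**Figure D3:**
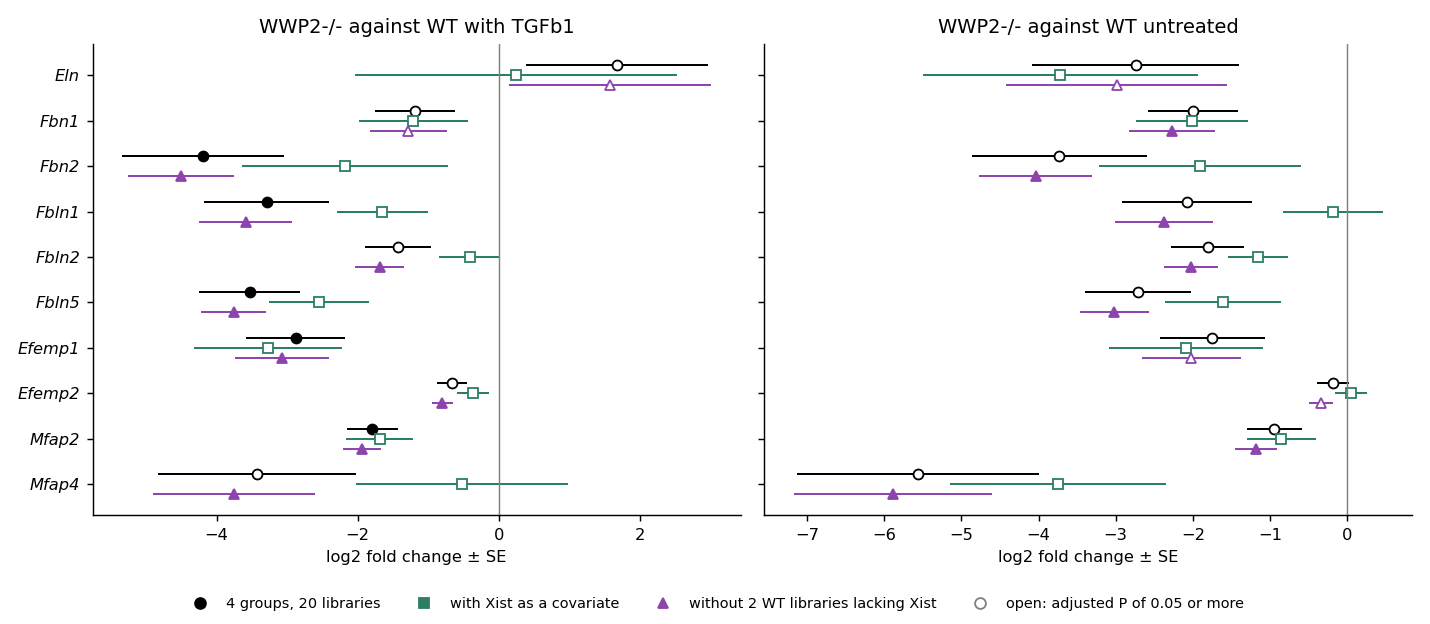
Log2 fold change ± SE of each member, WWP2-/- against WT, with TGFb1 (left) and untreated (right), in the fit of 20 libraries, with Xist as a covariate, and without the 2 WT libraries that lack Xist; open symbols have an adjusted P of 0.05 or more. In the fit of 20 libraries 5 members pass with TGFb1 and 0 untreated, with Xist as a covariate 0 and 0, and without the 2 WT libraries 8 and 7.

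TGFb1 itself left the members without a call in either genotype. In WT cells, 0 of 10 members passed edgeR's test of treated against untreated libraries, as did 0% of all genes, and 0 members and 1397 genes had an unadjusted *P* below 0.05. The log2 fold change in WT cells was between −0.69 ± 1.26 (*Eln*) and 0.59 ± 0.35 (*Mfap2*), with 7 members positive and a median of 0.25. In WWP2-/- cells, 0 of 10 members and again 0% of all genes passed, and 1 member, *Eln*, and 713 genes had an unadjusted *P* below 0.05. *Eln* was at 3.73 ± 1.4 there, but at −0.51 without WWP2-/- TGFb1 replicate 3. The other members in WWP2-/- cells were between −0.93 ± 0.65 (*Fbln5*) and 2.11 ± 1.38 (*Mfap4*). DESeq2's Wald test called 0 members in each genotype. Levels of *Fbn1* illustrate the spread, at 1409 ± 269 CPM with TGFb1 and 1316 ± 699 CPM without (SD, n = 5 each) in WT cells.

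The difference between genotypes was not shown to depend on TGFb1 for any member. The interaction of genotype and treatment passed for 0 of 10 members and 0% of all genes in edgeR's test and for 0 members by DESeq2, and 1 member, *Eln*, and 1424 genes had an unadjusted *P* below 0.05. The interaction was 4.42 ± 1.86 on the log2 scale for *Eln* and 0.18 without WWP2-/- TGFb1 replicate 3. It was −0.82 ± 0.92 for *Fbln5*, −0.85 ± 0.50 for *Mfap2*, and −1.12 ± 0.94 for *Efemp1*, the members whose libraries did not overlap with TGFb1. The 5 members called with TGFb1 and the 0 called without it were thus not shown to differ in their response.

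Across the 20 libraries, the levels of most members varied together. The log2 CPM of *Fbln2* and *Mfap4* had Pearson's r of 0.925, *Fbln1* and *Fbln5* 0.911, and *Fbn2* and *Fbln1* 0.892. *Eln* was the outsider, with a median r of 0.418 to the other 9 and its lowest, 0.153, with *Fbln1*. *Efemp1* was also looser, with a median of 0.584, its closest member being *Mfap2* (r = 0.851). The points are 20 libraries that share 4 groups and the low WT libraries, so these values describe the set and are no test. In both WWP2-/- libraries with little *Acta2*, *Fbln1*, *Fbln2*, and *Mfap4* were the highest of their group while *Eln*, *Efemp1*, and *Mfap2* were the lowest. Of the 20346 other named genes tested, those most like *Eln* were *Magt1* (r = 0.934), *Mxra7* (0.930), and *Vamp5* (0.920), and those most like *Fbn1* were *Acot11* (0.976), *Nuak1* (0.971), and *Fstl1* (0.969).

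**Figure D4:**
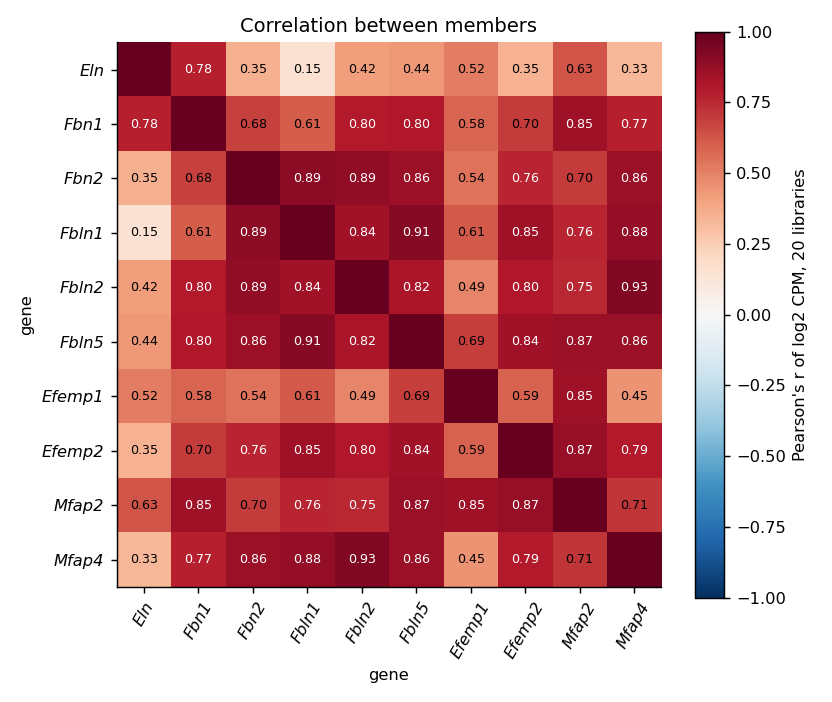
Pearson's r between members, computed on log2 CPM over the 20 libraries. The highest value is 0.925 (Fbln2 and Mfap4) and the lowest 0.153 (Eln and Fbln1), and all are above 0.

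Other genes of the elastic fibre were counted in 3 lists. Of 26 binding partners, 25 were tested and, in WWP2-/- against WT cells with TGFb1, 5 were lower, 1 was higher, and 19 did not pass, where 6.07% of all genes were called and 3.96% as lower. Among the 6 that passed, the 4 largest differences were in *Fbln7*, a further fibulin, at 165 ± 105 CPM in WT and 4.39 ± 2.84 in WWP2-/- cells (SD, n = 5, log2 fold change −5.23 ± 1.12, adjusted *P* = 0.0138), *Vcan*, the proteoglycan versican, *Emilin2*, an elastin interface protein, and *Ltbp1*, which tethers latent TGFb to microfibrils. *Vcan* was the one that was higher, at 52.8 ± 16.1 and 323 ± 300 CPM (2.61 ± 0.56, adjusted *P* = 0.0138). *Emilin2* was at 49.3 ± 26.8 and 9.20 ± 7.09 CPM (−2.42 ± 0.65, adjusted *P* = 0.0351), and *Ltbp1* at 163 ± 89 and 45.0 ± 12.2 CPM (−1.86 ± 0.48, adjusted *P* = 0.0311). Differences that were larger than that of *Vcan* but did not pass were those of *Tnxb* (−3.32 ± 1.26, adjusted *P* = 0.115) and *Mfap5* (−2.84 ± 1.3, adjusted *P* = 0.183). The median log2 fold change of the partners was −0.45, against 0.05 over all genes.

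Cross-linking turns tropoelastin into elastin, and 2 of the 6 genes of this list were lower with TGFb1 and 4 did not pass, with a median log2 fold change of −1.01 against 0.05 over all genes, of which 3.96% were called as lower. *Lox*, lysyl oxidase, was at 5024.5 ± 1952.8 CPM in WT and 1259.5 ± 737 CPM in WWP2-/- cells (−2.0 ± 0.53, adjusted *P* = 0.0340). *Loxl1*, which acts with fibulin-5 on elastin, was at 1055.5 ± 124 and 445 ± 152 CPM (−1.25 ± 0.30, adjusted *P* = 0.0207). Of 10 proteases that cleave elastin or microfibrils, 8 were tested and 1 was higher, *Mmp9*, at 0.490 ± 0.289 CPM in WT and 17.8 ± 21.3 CPM in WWP2-/- cells (5.18 ± 1.15, adjusted *P* = 0.0158). The other 7 did not pass, and the median of the list was 0.62 (all genes 0.05, with 6.07% called). The macrophage markers, with log2 fold changes of 1.25 to 3.0, had the same sign as *Mmp9*, and their part in its difference was not tested. Without TGFb1, and for TGFb1 in either genotype and the interaction, 0 genes of the 3 lists passed.

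**Figure D5:**
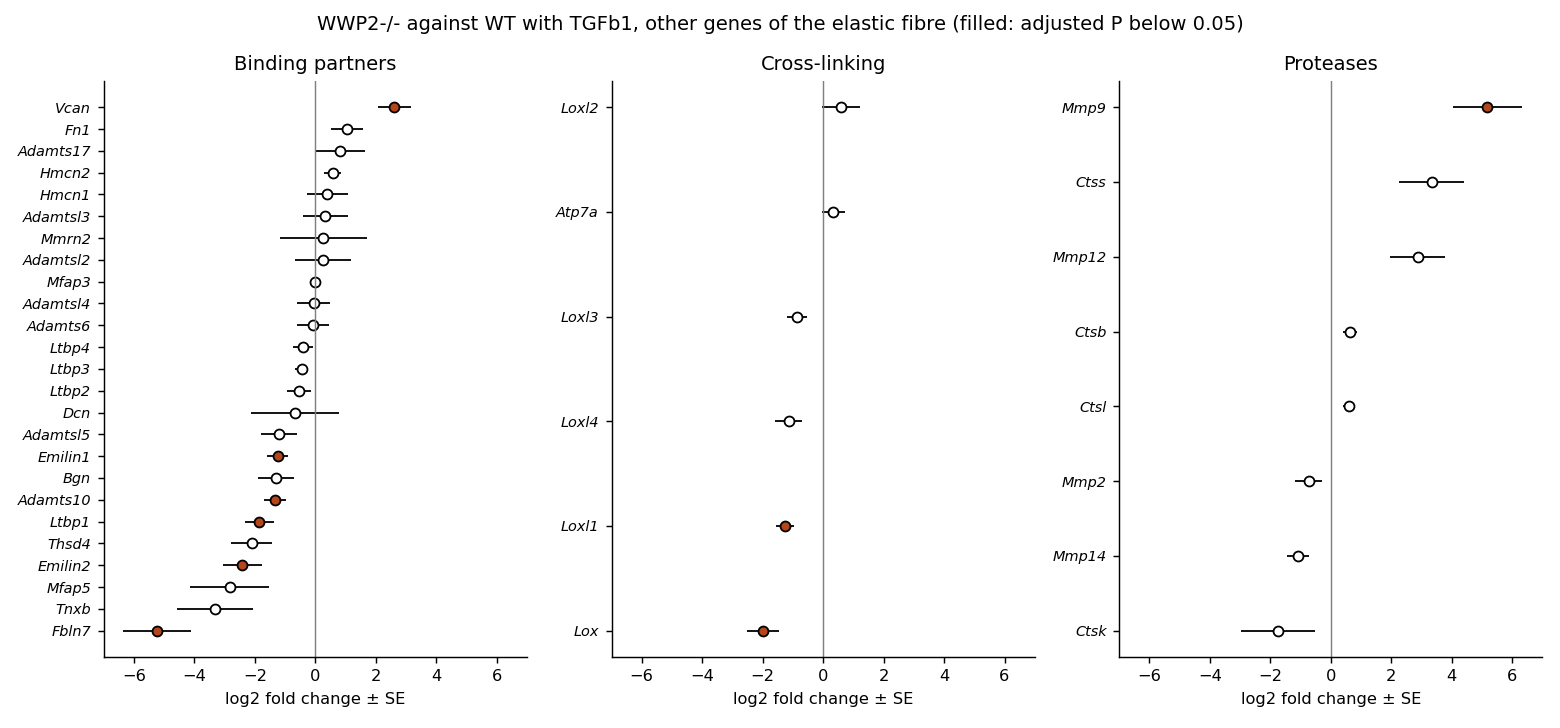
Log2 fold change ± SE of the 39 other elastic fibre genes tested, WWP2-/- against WT with TGFb1, in 3 lists; filled points have an adjusted P below 0.05. In the partners 5 are lower and 1 is higher, in cross-linking 2 are lower, and in the proteases 1 is higher.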

How the data were processed

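RNA of primary renal myofibroblasts was poly-A selected and sequenced as paired-end reads. The authors aligned the reads to GRCm38 (mm10) with STAR and counted those on exons with featureCounts. They compared genotypes with DESeq2's Wald test at a false discovery rate below 0.05. That test is an alternative here, and edgeR's test is the main one. The deposited values are whole-number counts per Ensembl gene without normalization. All 20 columns were assigned to groups by the sample labels, and no pair of libraries was identical. Gene names, positions, and exon lengths came from GENCODE M21, which names 51633 of the genes, and promoter sequences from RefSeq (GRCm38.p6).

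Genes reaching 5 counts in 5 or more libraries (20407, holding 99.98% of counts) were normalized by TMM and fitted as 4 groups in 1 model with glmQLFit and glmQLFTest of edgeR 4.0.16 in R 4.3.3. An adjusted *P* below 0.05 after Benjamini–Hochberg correction over all genes tested was required. The standard error is the absolute log2 fold change over the square root of F. CPM used the TMM-scaled totals, and log2 CPM a prior count of 2. The members, the 3 lists of other elastic fibre genes, and the marker lists were chosen with earlier results of these data known. From each list, the 4 genes with the largest log2 fold change among those called were named, and for *Eln* and *Fbn1* the 3 most correlated other genes. Alternatives were DESeq2's size factors, DESeq2's Wald test (1.42.0), 2 other filters, a fit of only the groups compared, a covariate for *Xist*, a block for the replicate number, leaving out single libraries, and length by the longest transcript. Leaving out the WT libraries without *Xist* or the WWP2-/- libraries with little *Acta2* was chosen after seeing the data. Simulated counts, in which 200 of 20040 genes had a log2 change of 2, were put through the comparison of genotypes with TGFb1. The fit recovered 114 of the 200 (57%) and made 7 false calls, against 0 false calls where no change was simulated. Changes of that size were thus often missed, and a gene that did not pass was not shown to be unchanged.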

Additional observations from a re-analysis of the deposited data

Results flagged for a closer look

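In groups of 5 libraries, a library was marked where its gap to the nearest other, divided by the range of the group, was above Dixon's critical value of 0.71. Of 40 combinations of member and group, 7 were marked. Chance alone marks about 1 in 20 where values are independent and normally distributed. The members varied together across these libraries, so the 7 cannot be set against that rate. *Eln* was high at 17.3 CPM in WT TGFb1 replicate 4 (next 5.37 CPM) and at 110.4 CPM in WWP2-/- TGFb1 replicate 3 (next 2.29 CPM). In that same WWP2-/- library, *Fbn1* was high at 1845 CPM (next 532 CPM). *Fbln1* was high at 17.8 CPM in WWP2-/- TGFb1 replicate 1 (next 3.02 CPM), and *Mfap4* at 1.05 CPM in WWP2-/- untreated replicate 3 (next 0.143 CPM), which are the libraries with little *Acta2*. *Mfap4* was also high at 45.9 CPM in WT untreated replicate 3 (next 7.98 CPM). *Fbln5* was low at 27.5 CPM in WT untreated replicate 4 (next 857 CPM), the library without *Xist*.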

How the results depend on the processing

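With TGFb1, 5 of 10 members passed between genotypes. The number was 8 by DESeq2's Wald test, 4 with no filter, and 3 in a fit of only the groups compared. It was 0 with *Xist* as a covariate and 8 without the WT libraries that lack *Xist*. It ran from 2 (without WT TGFb1 replicate 2, 4, or 5 or WWP2-/- TGFb1 replicate 2) to 7 (without WT TGFb1 replicate 3) as single libraries were left out. Untreated, it was 0, but 5 by DESeq2's Wald test, 7 without the WT libraries that lack *Xist*, and 2 without the WWP2-/- libraries with little *Acta2*, and it ran from 0 to 6 (6 without WT untreated replicate 4). For TGFb1 in either genotype and the interaction it was 0 under every alternative run. The cause of these changes was not tested. Over all genes, the 1238 and 148 calls became 790 and 113 with no filter, 534 and 1 in a fit of only the groups compared, and ran from 453 to 2730 and from 1 to 743 as single libraries were left out. For TGFb1, DESeq2's Wald test called 27 genes in WT and 44 in WWP2-/- cells, and 10 for the interaction. A filter of 10 counts in every library gave no value for *Eln*, *Fbn2*, and *Mfap4*, and 4 of the other 7 members passed with TGFb1. The longest transcript as length exchanged *Eln* and *Mfap4* in the order of levels. The difference of *Wwp2* between genotypes ran from −1.54 to −1.46 on the log2 scale with TGFb1 and from −1.41 to −1.33 untreated as single libraries were left out. No member that passed had the opposite direction under any alternative run.

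The replicate number as a block left 3 members with TGFb1 and 0 untreated, and 670 and 1 of all genes. The numbers were not shown to pair the libraries, and only WT replicate 1 had its best match in the library of the same number. The correlation of deviations between same-numbered treated and untreated libraries was 0.254, −0.101, −0.522, −0.459, and 0.299 in WT and −0.100, 0.282, −0.185, 0.283, and 0.109 in WWP2-/- cells.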
